A study of Mus musculus with 9 samples.

Results

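The comparison of hPTH(1-34) with vehicle at 4 h asked which RNAs of primary mouse osteoblasts changed when the cells met the active fragment of parathyroid hormone. It covered 6 of the 9 arrays of the series, chosen by their titles: the 3 arrays of cells given 100 nM human PTH(1-34) and the 3 arrays of cells given vehicle. All 22180 genes with a transcript cluster of a single symbol were examined, out of 22180 in the series. A transcript cluster is the group of probes that the array reads together as a single transcript region. The cells of both groups were osteoblasts released by collagenase and trypsin from the calvaria of C57BL/6J pups, 7 to 10 days old, for which the labels name no genetic change. They were used at passage 2, differentiated from day 3 with β-glycerophosphate and ascorbic acid, deprived of serum for 24 h from day 10, and treated for 4 h in medium with albumin. The other 3 arrays, of cells given 1 µM bovine (D-Trp12,Tyr34) PTH(7-34) amide, entered the shared estimate of the spread. Cells were prepared independently for each replicate, per the series text. That text does not say whether a preparation was divided among the treatments.

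Parathyroid hormone acts on osteoblasts through the receptor Pth1r, which couples to Gs and raises the messenger cAMP. cAMP activates protein kinase A, which phosphorylates the transcription factor CREB and holds back the salt-inducible kinases, so that CREB and its coactivators switch on early target genes. In bone the hormone is known both for stimulating bone formation when given intermittently and for raising the osteoclast factor RANKL.

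Some matrix genes of osteoblasts were at high levels in the culture, and other osteoblast markers were far lower. With vehicle, mean log2 levels were 12.29 ± 0.11 (SD, n = 3) for Col1a1, 11.49 ± 0.19 for Postn and 10.88 ± 0.01 for Sparc. Alpl, the mineralisation phosphatase, stood at 5.5 ± 0.32, Pth1r at 4.7 ± 0.22 and the bone sialoprotein gene Ibsp at 3.84 ± 0.65. Sp7, a defining osteoblast transcription factor, and Bglap, the osteocalcin gene of mature osteoblasts, were at 1.45 ± 0.15 and 1.25 ± 0.16. Both lay under a background limit of 1.69, below which 95% of 1105 olfactory receptor genes had their vehicle mean. Of all genes 60.5% had a vehicle mean over that limit. Each array's median lay between 1.67 and 1.76, and arrays of the compared groups correlated at 0.984 to 0.993 across genes. In 7 marker lists of other cell types, 0 of 85 members passed in limma. Of the 85, 7 had an unadjusted p under 0.05, as had 2078 of all 22180 genes. The mean level of 11 adipocyte markers ran from 4.32 to 4.7 over the vehicle arrays and from 4.49 to 5.13 over the hPTH(1-34) arrays. For 20 macrophage and osteoclast markers the ranges were 3.65 to 4.27 and 3.28 to 4.43. With vehicle, 19 of these 20 lay over the limit, as did 10 of 11 adipocyte and 11 of 12 chondrocyte markers. For skeletal muscle it was 10 of 14 markers, for endothelium 6 of 12, for neural crest glia and neurons 5 of 9, and for blood cells 0 of 7. In RNA of whole cultures, a change in the number of cells of a type and a change in RNA per cell cannot be told apart.

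After hPTH(1-34), 105 genes passed an adjusted p of 0.05 in limma, 0.473% of the genes examined. Of these, 73 (0.329%) were higher and 32 (0.144%) lower. At an unadjusted p under 0.05, 5.55% of all genes were higher and 3.82% lower. The median rise was 1.25 on the log2 scale, from 0.52 to 3.71, and 52 of them were at least 2-fold. The median fall was -0.84, from -0.6 to -1.53, and 7 falls were at least 2-fold. Over all genes the median change was 0.003, and 50.3% of the changes were positive. The median vehicle level of the genes that rose was 5.17, against 6.65 for the genes that fell and 2.19 for all genes. Of the 73 rises 35 came from a vehicle mean under 5, and of the 32 falls 8 did. Mctp2, Brinp3 and Tubb4b rose from a vehicle mean under the background limit. In the other 70 rises the vehicle mean lay over that limit, though for some by little, as for Iyd at 2.16 and Nr4a3 at 2.17.

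**Figure D1:**
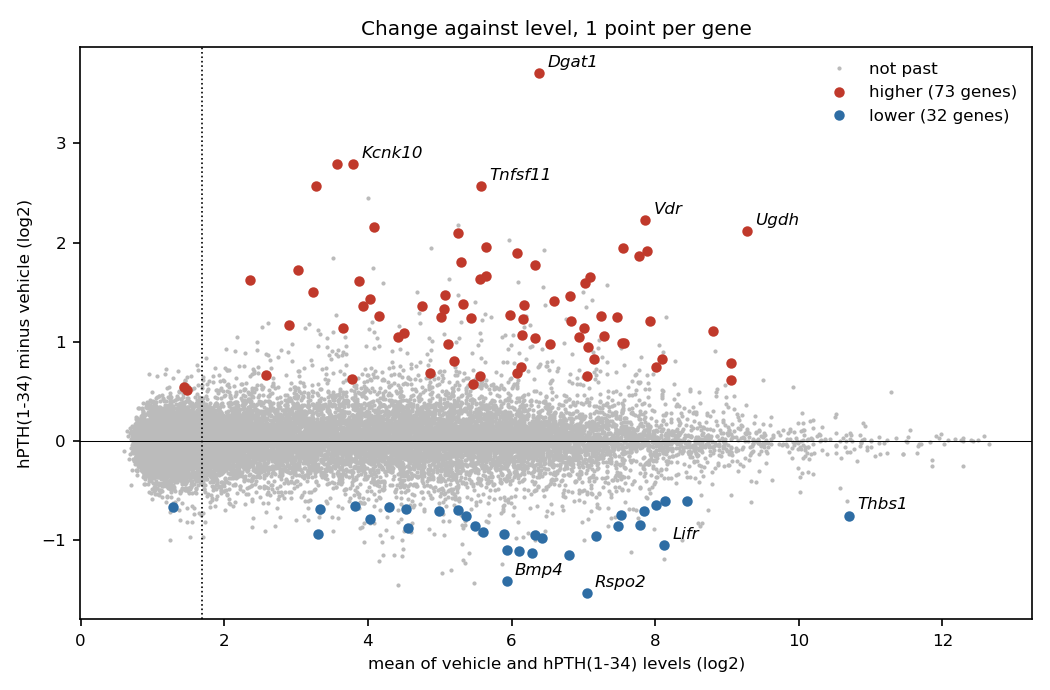
Change after hPTH(1-34) (vertical axis, log2) against the mean of the vehicle and hPTH(1-34) levels (horizontal axis, log2), with 1 point per gene, red for the 73 genes higher, blue for the 32 lower and grey for the rest; the dotted line is the background limit of 1.69. Dgat1 stands apart at 3.71, while Thbs1, at a vehicle level of 11.08, is the brightest of the named falls.

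In each of the 105 genes the 3 hPTH(1-34) arrays lay beyond the 3 vehicle arrays, as in 10.7% of all genes (6.16% upward and 4.58% downward). The gap between the groups, from the nearest array of one to the nearest of the other, had a median of 0.74 for the rises and 0.54 for the falls. It reached 2.94 for Dgat1, 2.22 for Nr4a3 and 1.57 for Vdr. hPTH(1-34) array 1 was the least changed of the 3 in most of these genes, being the lowest in 62 of 73 rises and the highest in 25 of 32 falls. Subtracting vehicle array 1 from hPTH(1-34) array 1 gave a median rise of 0.82 in the 73 genes, while arrays 2 gave 1.47 and arrays 3 gave 1.43. The calls depended on single arrays. Without hPTH(1-34) array 1, 254 genes passed, 96 of the 105 among them. Without hPTH(1-34) array 2 only Dgat1, Nr4a3 and Mctp2 passed, and without hPTH(1-34) array 3 only Dgat1 and Nr4a3. Leaving out vehicle array 1 kept 54 of the 105. Without vehicle array 2 or vehicle array 3 no gene passed in limma, while 1713 and 1829 genes had an unadjusted p under 0.05. The adjusted p of the 105 then ran from 0.0572 to 0.225 and from 0.0502 to 0.222. Leaving out bPTH(7-34) array 1, 2 or 3, which only serves the estimate of the spread, left 47, 40 and 59 of the 105.

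**Figure D2:**
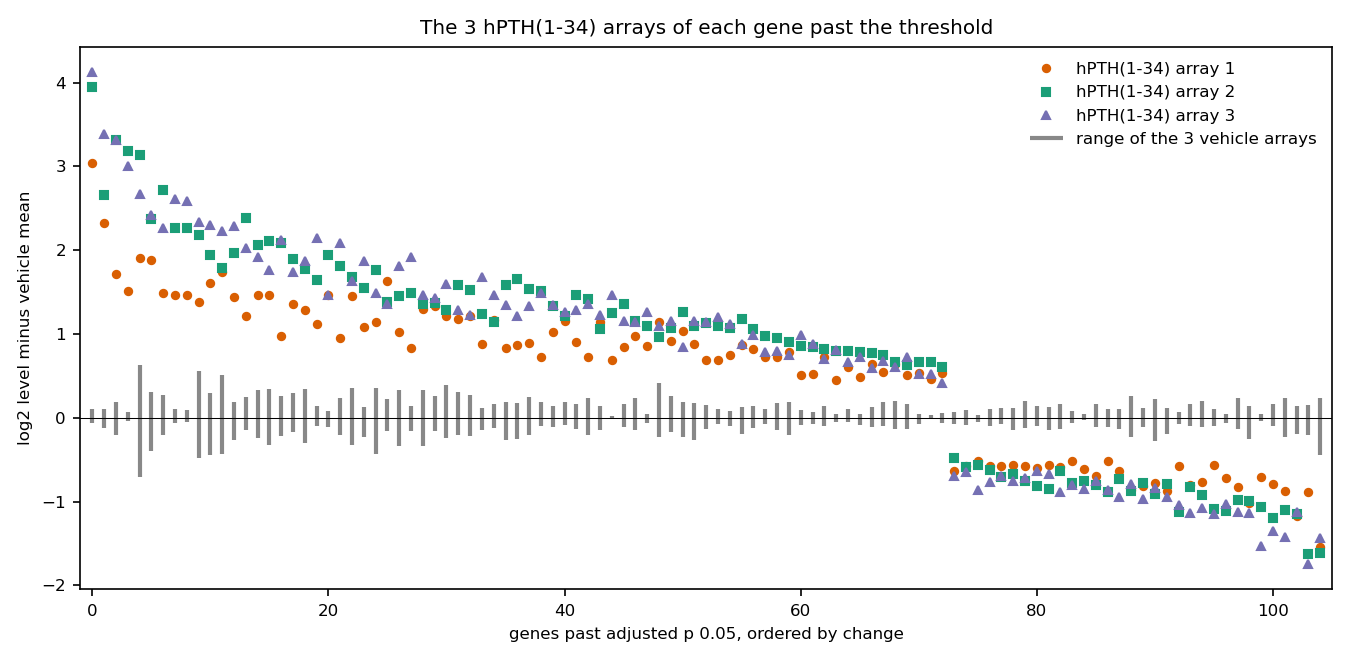
Log2 level of each hPTH(1-34) array minus the vehicle mean (vertical axis) for the 105 genes past the threshold, ordered by change (horizontal axis); circles, squares and triangles are arrays 1, 2 and 3, and grey bars span the 3 vehicle arrays. Array 1 lies nearest to the vehicle arrays in 62 of the 73 rises and 25 of the 32 falls.

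Among 30 measured targets of cAMP and CREB, 4 rose and 0 fell, against 0.329% and 0.144% of all genes. The median change of the 30 was 0.18, beside 0.003 for all genes. In 11 of the 30 (36.7%) the hPTH(1-34) arrays all lay over the vehicle arrays, as in 6.16% of all genes. Nr4a3, an orphan nuclear receptor of early responses, had log2 levels of 2.18, 2.27 and 2.05 with vehicle and of 4.49, 4.83 and 5.56 with hPTH(1-34). Its lowest hormone array stood far above its highest vehicle array, and the rise was 6.93-fold (2.79 ± 0.23 SE, adjusted p = 0.00556). Its relative Nr4a2 went from 4.72, 4.15 and 4.31 to 5.85, 6.45 and 6.31, a rise of 1.81 ± 0.21 with an adjusted p of 0.0149. For Nr4a1, the third member of the family, the change was 0.93 ± 0.17 (adjusted p = 0.0638), with no overlap between 3.61 to 4.19 and 4.71 to 5.11. Rgs2, which shortens G protein signals, rose by 1.36 ± 0.21 (adjusted p = 0.0377) from 4.47, 3.84 and 3.94 to 5.29, 5.36 and 5.68. A dimmer Rgs2 cluster, at 1.2 and so under the background limit, gave 0.21 ± 0.12 (adjusted p = 0.644). Crem, which makes both activators and repressors at cAMP-responsive sites, rose least, by 0.67 ± 0.11 (adjusted p = 0.0442) from a vehicle level of 2.25 ± 0.08. Fos, the early gene of serum and cAMP responses, was at 2.17 ± 0.09 at 4 h, with a change of -0.03 ± 0.1.

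Promoter sequences of 5 risen genes are shown here, chosen as known cAMP targets or because they hold the motif of CREB. CREB is known to bind the element TGACGTCA, and its 5-letter core TGACG, or CGTCA on the opposite strand, also lies inside the full element. Shown first, with each core in capitals, are 3 of the 4 risen cAMP targets, and then the 2 risen genes that hold the full element, also in capitals. Each window is the 250 bases before the start in the RefSeq annotation of GRCm38.p6, written along the gene's strand: Nr4a3 at chr4:48045055-48045304 (plus strand), Nr4a2 at chr2:57124004-57124253 (minus), Rgs2 at chr1:144004150-144004399 (minus), Clasp2 at chr9:113741223-113741472 (plus) and Daam2 at chr17:49564311-49564560 (minus).
Nr4a3: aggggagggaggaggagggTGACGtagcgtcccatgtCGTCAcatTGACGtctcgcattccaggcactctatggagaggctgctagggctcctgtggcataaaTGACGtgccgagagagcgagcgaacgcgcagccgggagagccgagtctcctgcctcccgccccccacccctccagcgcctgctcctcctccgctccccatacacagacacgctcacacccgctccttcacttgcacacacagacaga
Nr4a2: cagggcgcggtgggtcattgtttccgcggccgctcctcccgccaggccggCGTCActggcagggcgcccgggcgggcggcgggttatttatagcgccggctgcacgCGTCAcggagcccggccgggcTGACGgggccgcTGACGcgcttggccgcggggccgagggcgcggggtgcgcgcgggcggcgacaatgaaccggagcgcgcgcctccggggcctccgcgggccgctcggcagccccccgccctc
Rgs2: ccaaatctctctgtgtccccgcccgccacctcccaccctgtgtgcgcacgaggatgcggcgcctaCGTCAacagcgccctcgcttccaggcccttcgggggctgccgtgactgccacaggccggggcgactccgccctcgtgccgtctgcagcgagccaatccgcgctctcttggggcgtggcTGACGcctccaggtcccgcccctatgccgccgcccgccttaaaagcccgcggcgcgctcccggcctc
Clasp2: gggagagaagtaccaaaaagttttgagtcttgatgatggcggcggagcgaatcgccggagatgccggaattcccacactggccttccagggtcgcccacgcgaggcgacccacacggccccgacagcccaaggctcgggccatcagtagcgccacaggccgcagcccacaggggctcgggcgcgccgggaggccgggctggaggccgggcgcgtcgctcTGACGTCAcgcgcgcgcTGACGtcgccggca
Daam2: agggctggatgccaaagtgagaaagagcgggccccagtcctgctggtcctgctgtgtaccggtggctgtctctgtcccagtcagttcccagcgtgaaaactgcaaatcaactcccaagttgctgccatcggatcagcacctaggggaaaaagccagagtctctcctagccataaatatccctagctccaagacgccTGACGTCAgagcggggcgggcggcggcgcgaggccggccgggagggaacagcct
The cores of Nr4a3 begin 231, 213, 205 and 147 bases before its start, and those of Nr4a2 200, 144, 123 and 111 bases before. Rgs2 holds 2, at 185 and 67 bases. The full element begins 31 bases before the start of Clasp2 and 54 before that of Daam2, which has another annotated start 27 bases from the element. For counts the search ran on to 50 bases after the start. Among the 58 risen genes with such a window, 27 (46.6%) held a core, and 5 of 24 fallen genes (20.8%) did. In Kif21a, Txnrd1 and Gpr176 of these, no core lay wholly before the start. In the same longer window the share was 26.8% over all tested genes with a window and 33.4% over those above the background limit. The full element was found in 2 of the 58, 3.45%, against 2.65% of all tested genes. These are matches of letters in a window, and binding was not measured.

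At the level of the receptor, Pth1r itself read 4.82, 4.84 and 4.45 with vehicle and 4.77, 4.29 and 4.01 with hPTH(1-34), overlapping groups with a change of -0.35 ± 0.19 (adjusted p = 0.638). Among 23 genes for the receptor, G proteins, arrestins and accessory proteins, Ramp3 alone rose. Ramp3 encodes a membrane partner of calcitonin-family receptors and was at 2.07, 1.96 and 1.96 with vehicle, little over background, and at 3.51, 5.18 and 5.0 with hPTH(1-34). All hormone arrays were higher, though array 1 by far the least, and the change was 2.57 ± 0.36 (adjusted p = 0.0275). Of 36 adenylyl cyclase, protein kinase A and phosphodiesterase genes only Pde10a, which degrades cyclic nucleotides, rose (1.09 ± 0.15, adjusted p = 0.0244). Pde3b gave 1.02 ± 0.24 without passing (adjusted p = 0.161). Akap2, an anchoring protein for protein kinase A, rose by 0.75 ± 0.13 (adjusted p = 0.0494), and the G protein subunit gene Gnao1 by 0.66 ± 0.11 (adjusted p = 0.0449); neither was in these lists. Sik3, a salt-inducible kinase, gave 0.79 ± 0.15 (adjusted p = 0.0682).

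Several genes for other cell-surface receptors moved. Bdkrb1, a bradykinin receptor, rose by 1.33 ± 0.17 (adjusted p = 0.0204), from 4.4 ± 0.25 to 5.72 ± 0.18. S1pr1, a receptor for sphingosine phosphate that guides cell movement, rose by 1.26 ± 0.2 (adjusted p = 0.0378). Ntrk2, the receptor of the neurotrophin BDNF, was at 3.22, 2.94 and 3.08 with vehicle and at 4.22, 4.14 and 4.31 with hPTH(1-34). Its arrays were tightly grouped on both sides, and the change was 1.14 ± 0.12 (adjusted p = 0.0108). The bPTH(7-34) arrays of Ntrk2, at 3.74, 3.37 and 3.45, also lay over its vehicle arrays. In the opposite direction, the orphan receptor gene Gpr176 fell by 1.11 on the log2 scale (SE 0.16, adjusted p = 0.0275). Cdon, a co-receptor for hedgehog ligands, fell from 8.03, 7.89 and 7.8 to 7.1, 7.13 and 6.94 (-0.85 ± 0.09, adjusted p = 0.0126), which was the smallest adjusted p among the falls.

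Of 22 osteoclast-regulating factors, Tnfsf11 alone passed. It encodes RANKL, the ligand that drives osteoclast formation, and its vehicle arrays were spread widely, at 4.92, 4.36 and 3.58. The hPTH(1-34) arrays read 6.2, 7.42 and 6.96, all higher, and the rise was 5.95-fold (2.57 ± 0.43, adjusted p = 0.0468). Its adjusted p reached 0.209 among the alternatives. Tnfrsf11b, the decoy receptor for RANKL, was at 3.6 ± 0.07 and 3.53 ± 0.19, with a change of -0.07 ± 0.16 (adjusted p = 0.934). Il6 read 7.7, 7.47 and 7.41 and then 8.81, 8.74 and 8.79. These groups did not overlap, and the change was 1.25 ± 0.41 (adjusted p = 0.358). The standard error pools the spread of all 3 groups, and bPTH(7-34) array 3 read 5.91. Csf1, the macrophage growth factor, gave -0.54 ± 0.21 (adjusted p = 0.461) and the related Il34 -0.52 ± 0.17 (adjusted p = 0.347).

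Cytokine receptors and their signal carriers changed in both directions. Of 19 genes in that list, Il4ra and Stat3 rose and Lifr fell, and the median was 0.18. Over all genes, 0.329% rose and 0.144% fell. Il4ra, an interleukin receptor chain, went from 7.1, 6.81 and 6.65 to 7.74, 8.39 and 8.18 (1.25 ± 0.18, adjusted p = 0.0275). Stat3, the transcription factor below the gp130 receptors, rose by 0.62 ± 0.1 (adjusted p = 0.0474). Lifr, the receptor for leukemia inhibitory factor that pairs with gp130, fell from 8.4, 8.76 and 8.79 to 7.63, 7.66 and 7.51. Its hormone arrays lay close together and at least 0.74 below the vehicle arrays, with a change of -1.05 ± 0.14 (adjusted p = 0.0237). Ptpn2, a phosphatase that switches off JAK and STAT proteins, rose by 0.95 ± 0.12 (adjusted p = 0.0204). Socs2, a feedback inhibitor of the same pathway, gave 1.19 ± 0.28 (adjusted p = 0.148). Cxcl14 was the only gene of 26 chemokines and NF-kB targets to pass, with a rise of 1.87 ± 0.3 (adjusted p = 0.0423), while the list's median was -0.22.

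Vdr, the vitamin D receptor, read 7.06, 6.83 and 6.35 with vehicle and 8.63, 9.12 and 9.17 with hPTH(1-34). All 3 hormone arrays were at least 1.57 above the highest vehicle array, and the rise was 4.68-fold (2.23 ± 0.22, adjusted p = 0.00861). It was the only one of 20 genes for vitamin D, mineral and phosphate handling to pass, and that list had a median of -0.01. Vdr passed in 15 of 20 alternatives, with adjusted p up to 0.0711.

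Among secreted factors of the Wnt and BMP families, Rspo2 and Bmp4 fell and the activin subunit gene Inhba rose. In 52 genes of R-spondins, Wnt ligands, receptors and antagonists, Rspo2 fell and none rose. Rspo2 is a secreted protein that stabilises Wnt receptors. Its levels were 7.37, 8.02 and 8.05 with vehicle and 6.27, 6.2 and 6.37 with hPTH(1-34). The lowest vehicle array stood 1.0 above the highest hormone array, the widest gap among the falls, and the change was -1.53 ± 0.23 (adjusted p = 0.0356). Its relative Rspo3 gave -1.0 ± 0.21 (adjusted p = 0.099) and the R-spondin receptor gene Lgr5 -1.43 ± 0.25 (adjusted p = 0.0561), both with separate groups. The Wnt receptor gene Fzd5 gave -1.45 ± 0.31 (adjusted p = 0.108). Of 40 genes of BMPs, activins, TGF-beta and antagonists, 1 rose and 1 fell, against 0.329% and 0.144% of all genes. Bmp4, a bone-inducing ligand, went from 6.43, 6.69 and 6.79 to 5.76, 5.02 and 4.89 (-1.41 ± 0.24, adjusted p = 0.0484), with hPTH(1-34) array 1 nearest to the vehicle arrays. It passed in 8 of 20 alternatives, with adjusted p up to 0.225. Inhba went from 4.57, 4.45 and 4.14 to 5.26, 6.05 and 5.6 (1.25 ± 0.2, adjusted p = 0.0442). Outside these lists, Lrrc32, which holds latent TGF-beta at the cell surface, rose by 1.65 ± 0.25 (adjusted p = 0.0375). Thbs1, which encodes thrombospondin, an activator of latent TGF-beta, fell from 10.97, 11.25 and 11.02 to 10.38, 10.28 and 10.32 (-0.75 ± 0.11, adjusted p = 0.0338). The BMP antagonist gene Grem1 gave 1.42 ± 0.34 (adjusted p = 0.159), and Fst, the activin antagonist follistatin, -0.49 ± 0.11 (adjusted p = 0.134).

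**Figure D3:**
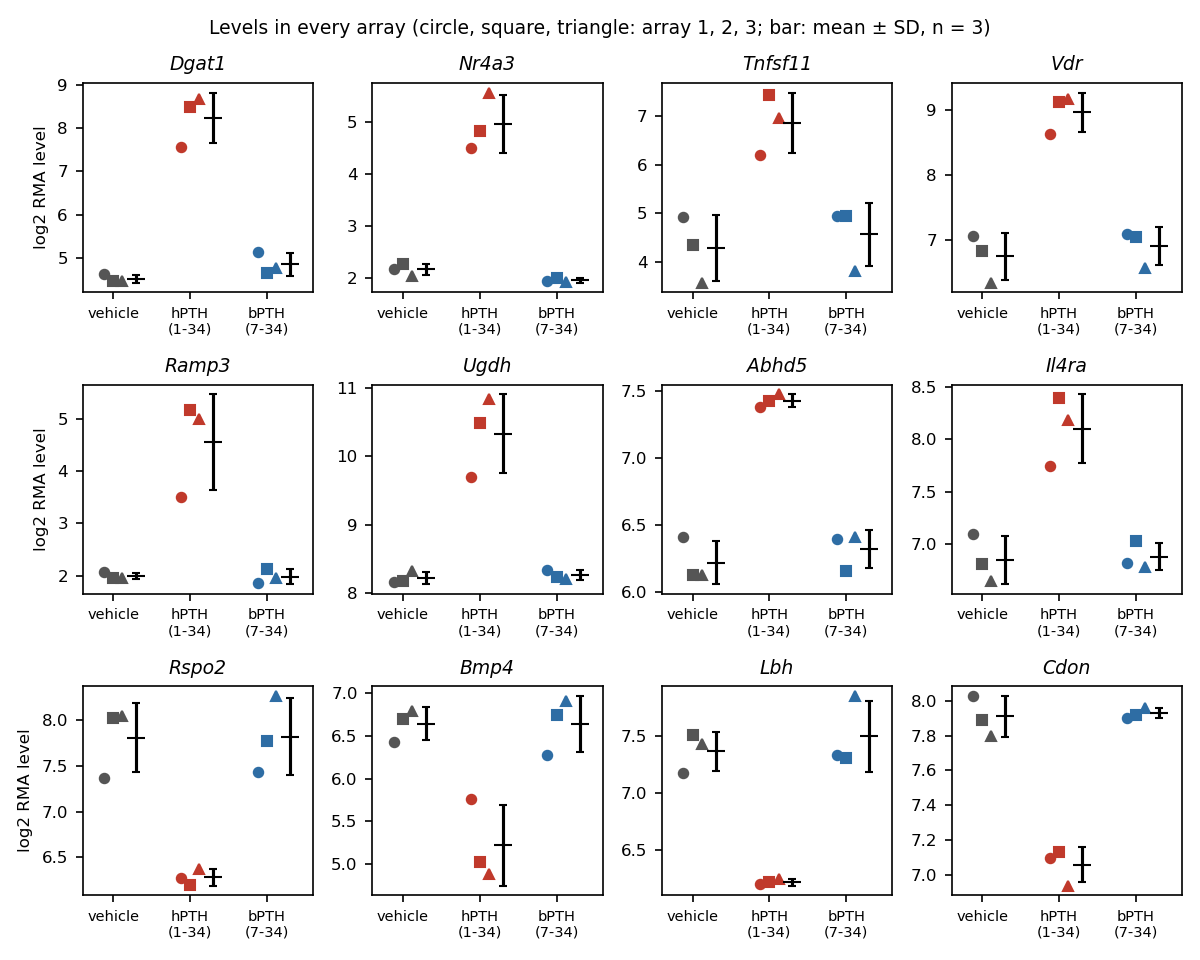
Log2 RMA level (vertical axis) of 12 genes in every array of the vehicle, hPTH(1-34) and bPTH(7-34) groups; symbols are arrays 1 to 3 and bars the mean ± SD (n = 3). In each panel the 3 hPTH(1-34) arrays lie beyond the 3 vehicle arrays, from the wide gap of Dgat1 to the narrower ones of Il4ra and Bmp4.

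Insulin and IGF signalling genes that passed were lower. Irs1, the docking protein of the insulin and IGF receptors, fell from 6.62, 6.84 and 7.09 to 5.98, 5.75 and 5.43 (-1.13 ± 0.19, adjusted p = 0.0449). A dimmer Irs1 cluster, at 2.3 with vehicle, gave -0.21 ± 0.17 (adjusted p = 0.753). Pik3r1, the regulatory subunit of phosphoinositide 3-kinase, fell by 0.64 (SE 0.11, adjusted p = 0.0468). Pik3ip1, an inhibitor of the same kinase and in no list, also fell, by 0.78 (SE 0.11, adjusted p = 0.025). The other 18 genes of that list did not pass, and its median was 0.05. Over all genes, 0.144% fell. Pdk4, the kinase that holds back pyruvate oxidation and is raised in fasting, fell from 6.55, 6.24 and 6.27 to 5.58, 5.43 and 5.27 (-0.93 ± 0.14, adjusted p = 0.0323). It was the only one of 25 genes of glycolysis and the pyruvate switch to pass. Hk2, a hexokinase, gave 1.01 ± 0.19 (adjusted p = 0.0689), and Pdp1, the phosphatase that opposes the pyruvate dehydrogenase kinases, -1.04 ± 0.22 (adjusted p = 0.099).

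Of 33 measured genes of triglyceride and fatty acid turnover, 4 rose and 0 fell, against 0.329% and 0.144% of all genes. The list's median was 0.16, and 25 of the 33 changes were positive, as were 50.3% over all genes. Dgat1, which joins diacylglycerol and a fatty acid into triglyceride, read 4.63, 4.47 and 4.48 with vehicle and 7.57, 8.48 and 8.66 with hPTH(1-34). No other called gene had such a gap, and the rise was 13.1-fold (3.71 ± 0.26, adjusted p = 0.00287). It passed in 17 of 20 alternatives, with adjusted p up to 0.0607. Abhd5, the activator of the lipase that starts triglyceride breakdown, went from 6.41, 6.13 and 6.13 to 7.38, 7.43 and 7.48 (1.21 ± 0.11, adjusted p = 0.00861). The rises of the list thus held an enzyme of synthesis and an activator of breakdown. Acsl4, which loads polyunsaturated fatty acids onto coenzyme A, rose by 1.59 ± 0.2 (adjusted p = 0.0204), and the fatty acid desaturase gene Scd1 by 1.06 ± 0.18 (adjusted p = 0.0474). Fabp4, a fatty acid carrier of adipocytes, gave 0.85 ± 0.26 (adjusted p = 0.299). The 11 adipocyte markers had a median of 0.38, with 0 past the threshold in limma. Of the 11, 3 had an unadjusted p under 0.05, as had 2078 of all 22180 genes. Whether the adipocyte markers bear on the lipid genes was not tested. Dgkh, a kinase whose substrate is also diacylglycerol, rose by 2.16 ± 0.32 (adjusted p = 0.033) from 3.0 ± 0.25, alone among 8 diacylglycerol kinases. Pmvk, of the mevalonate pathway, was the only one of 19 cholesterol synthesis genes to pass (1.63 ± 0.23, adjusted p = 0.0256).

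The precursors of hyaluronan and sulfated chains are nucleotide sugars. Of 21 genes of hexosamine, UDP-sugar and hyaluronan synthesis, 3 rose and 0 fell, with a list median of 0.13. Over all genes, 0.329% rose and 0.144% fell. Gfpt2 makes glucosamine phosphate at the entry of the pathway and went from 7.43, 6.49 and 6.85 to 8.66, 8.71 and 9.15 (1.92 ± 0.26, adjusted p = 0.0244). Uap1, which forms UDP-N-acetylglucosamine, went from 6.88, 6.13 and 6.74 to 8.19, 8.52 and 8.88 (1.95 ± 0.23, adjusted p = 0.0167). Ugdh, which makes UDP-glucuronic acid, went from 8.16, 8.17 and 8.32 to 9.69, 10.48 and 10.83 (2.12 ± 0.24, adjusted p = 0.0127). The groups lay at least 1.31 apart for Uap1 and 1.37 for Ugdh. Both products are building blocks of hyaluronan, and the synthase gene Has2 gave 0.63 ± 0.17 (adjusted p = 0.22). Chst11, which sulfates chondroitin, rose by 1.96 ± 0.31 (adjusted p = 0.0378), as 1 of 36 genes for glycosaminoglycan chains. Hs2st1, which sulfates heparan chains, gave 1.07 ± 0.22 (adjusted p = 0.099) and Xylt1, which starts such chains, 1.13 ± 0.28 (adjusted p = 0.186). Chst8, which sulfates N-acetylgalactosamine on glycoproteins, rose by 1.26 ± 0.14 (adjusted p = 0.0112), and Sdc1, a proteoglycan of the cell membrane, by 0.69 ± 0.1 (adjusted p = 0.0292).

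Of 21 potassium channel genes 2 rose, against 0.329% of all genes, and genes for calcium channels and pumps stood beside them. Kcnk10, a background potassium channel, was at 2.59, 2.19 and 2.42 with vehicle and at 4.12, 5.72 and 5.72 with hPTH(1-34). Array 1 was again the least raised, and the change was 2.79 ± 0.42 (adjusted p = 0.0342). Kcne4, a potassium channel subunit, rose by 1.36 ± 0.17 (adjusted p = 0.0204), and the other 19 did not pass. The bPTH(7-34) arrays of Kcne4, at 3.71, 4.14 and 3.86, also lay over its vehicle arrays, which reached 3.57. Tpcn2, a cation channel of lysosomes, went from 5.52, 5.44 and 5.69 to 6.57, 6.88 and 6.9 (1.23 ± 0.12, adjusted p = 0.00861). Mcoln2, another channel of the endosomal and lysosomal membranes, rose by 1.38 ± 0.23 (adjusted p = 0.0467). Atp2a2, the calcium pump of the endoplasmic reticulum, rose by 0.79 ± 0.13 (adjusted p = 0.0414). Cbarp, which restrains voltage-gated calcium channels, rose by 1.61 ± 0.27 (adjusted p = 0.0452). Mctp2, a membrane protein with calcium-binding C2 domains, rose by 1.62 ± 0.15 (adjusted p = 0.00861) from 1.55 ± 0.1, under the background limit. Calhm5, of a family of large-pore channels, fell by 1.1 (SE 0.18, adjusted p = 0.0468).

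Polyamine, nucleotide and translation genes stood among the rises outside the lists. Odc1, the first enzyme of polyamine synthesis, went from 5.91, 6.03 and 5.73 to 6.72, 7.38 and 7.81 (1.41 ± 0.24, adjusted p = 0.047). Smox, which oxidises spermine, rose by 0.98 ± 0.12 (adjusted p = 0.0167). Uck2, a kinase that salvages uridine and cytidine, rose by 0.99 ± 0.15 (adjusted p = 0.0338). Eif4e, the cap-binding factor of translation, rose by 0.99 ± 0.14 (adjusted p = 0.0269). Metap1, which trims the first methionine of new proteins, rose by 1.05 ± 0.14 (adjusted p = 0.0204), and Ctu1, which modifies transfer RNA, by 0.63 ± 0.11 (adjusted p = 0.047). Gnl2 and Ftsj3 act in the maturation of the large ribosomal subunit. Gnl2 rose by 1.07 ± 0.11 (adjusted p = 0.0105), with arrays at 5.65, 5.55 and 5.63 and at 6.47, 6.71 and 6.87, and Ftsj3 by 0.69 ± 0.11 (adjusted p = 0.0449). Among 39 ribosome biogenesis factors of the list 0 members passed in limma and 24 had an unadjusted p under 0.05, all 24 with positive changes. At the same unadjusted p, 5.55% of all genes were higher. The median of the 39 was 0.4, and 34 changes were positive, as were 50.3% over all genes. In 19 of the 39 (48.7%) the hormone arrays all lay over the vehicle arrays, against 6.16% of all genes. The nucleolar protein gene Nop56 was nearest to the threshold at 0.96 ± 0.17 (adjusted p = 0.0534), and Nop2 gave 1.15 ± 0.22 (adjusted p = 0.0697), Wdr43 0.7 ± 0.14 (adjusted p = 0.099) and the polymerase subunit gene Polr1a 0.56 ± 0.13 (adjusted p = 0.137). Slc7a5, a carrier of large neutral amino acids, gave 0.74 ± 0.22 (adjusted p = 0.276).

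In the lists of heat shock and antioxidant genes 3 members rose and 0 fell, against 0.329% and 0.144% of all genes. Hsph1, a large heat shock protein, went from 5.77, 5.1 and 5.43 to 6.9, 7.54 and 7.19 (1.78 ± 0.19, adjusted p = 0.0112), as the only one of 19 heat shock genes. The list's median was 0.24, and 17 of its changes were positive, as were 50.3% over all genes. In 8 members (42.1%) all hormone arrays were on top, as in 6.16% of all genes. The mitochondrial chaperone gene Hspa9 gave 0.46 ± 0.09 (adjusted p = 0.0714) and the co-chaperone gene Bag3 0.68 ± 0.16 (adjusted p = 0.155). Dnaja2, a co-chaperone outside that list, rose by 0.75 ± 0.12 (adjusted p = 0.0378). Of 14 NRF2 target genes, Srxn1, which repairs peroxiredoxins, rose by 1.46 ± 0.2 (adjusted p = 0.025), and the thioredoxin reductase gene Txnrd1 by 0.83 ± 0.11 (adjusted p = 0.0204). Srxn1 read 6.3, 5.92 and 6.02 with vehicle and 7.71, 7.46 and 7.44 with hPTH(1-34), one of the genes in which array 1 was the highest. Mt1, a metallothionein, rose by 1.21 ± 0.16 (adjusted p = 0.0204). Gclc, of glutathione synthesis, gave 1.25 ± 0.27 (adjusted p = 0.108), and the heme oxygenase gene Hmox1 0.85 ± 0.23 (adjusted p = 0.22). Of 26 unfolded protein and ATF4 response genes 0 passed in limma, and their median was 0.03. Of the 26, 2 had an unadjusted p under 0.05, as had 2078 of all 22180 genes. Xbp1, a transcription factor of that response, gave 0.55 ± 0.11 (adjusted p = 0.096).

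**Figure D4:**
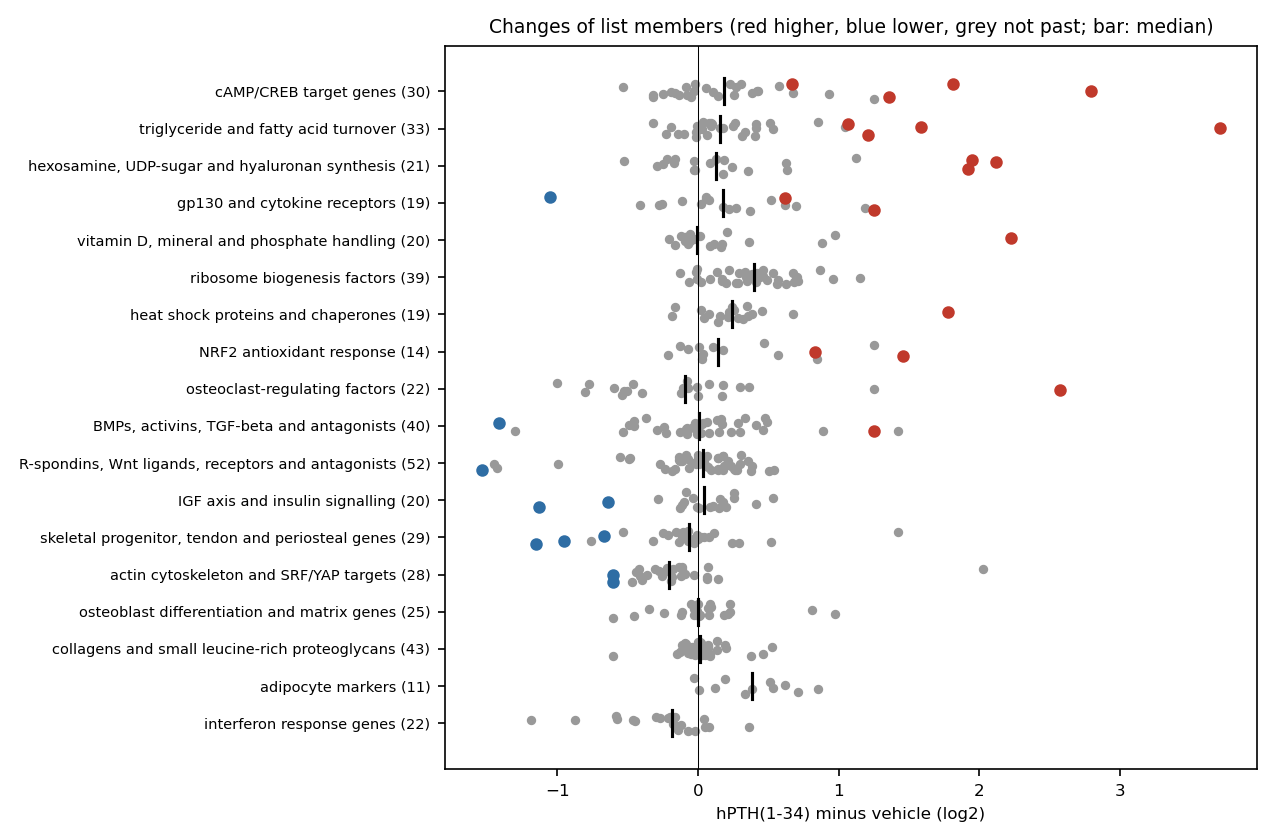
Change after hPTH(1-34) (horizontal axis, log2) of the measured members of 18 gene lists (rows, with the number of members), red for members that rose, blue for those that fell and grey for the rest; black bars are medians. The ribosome biogenesis list is shifted to a median of 0.4 with no member past the threshold, while the median of the osteoblast list is 0.0.

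In 28 actin and SRF/YAP target genes, Vcl and Cnn2 fell and none rose, against 0.144% and 0.329% of all genes. The median was -0.21 and 5 changes were positive, while 50.3% were positive over all genes. All hormone arrays lay under the vehicle arrays in 7 of the 28 (25.0%), as in 4.58% of all genes. Vcl, the focal adhesion protein vinculin, went from 8.5, 8.43 and 8.35 to 7.79, 7.95 and 7.74 (-0.6 ± 0.09, adjusted p = 0.038). Cnn2, an actin-binding calponin, fell by 0.6 (SE 0.1, adjusted p = 0.0417). Its relative Cnn1 pointed the opposite way, at 2.03 ± 0.52, without passing (adjusted p = 0.202). Rai14, an actin-associated protein, fell by 0.74 (SE 0.1, adjusted p = 0.0204). Dock9, an activator of Cdc42, rose from 4.29, 4.15 and 4.17 to 5.66, 6.46 and 6.79 (2.1 ± 0.25, adjusted p = 0.0167). Cdc42ep3, an effector of Cdc42, fell from 4.8, 5.07 and 5.11 to 4.12, 4.2 and 4.04 (-0.87 ± 0.11, adjusted p = 0.0204), while its dimmer cluster, at 1.94, gave -0.16 ± 0.09 (adjusted p = 0.664). Dock10, a relative of Dock9, gave -0.82 ± 0.18 (adjusted p = 0.124). Iqgap2, a scaffold for Cdc42 and Rac, rose by 1.37 ± 0.13 (adjusted p = 0.00861). Csrp2, a LIM protein of muscle-like cells, rose by 1.66 ± 0.16 (adjusted p = 0.00861). Ezr and Epb41l3, which tie membrane proteins to actin, rose by 0.81 ± 0.11 (adjusted p = 0.025) and 0.83 ± 0.14 (adjusted p = 0.0468). Daam2, a formin that assembles actin, rose by 1.17 ± 0.19 (adjusted p = 0.0417), from 2.32 ± 0.22. Nectin1, an adhesion molecule, rose by 1.24 ± 0.21 (adjusted p = 0.0468), and Plaur, the urokinase receptor, by 1.47 ± 0.23 (adjusted p = 0.0378).

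Genes of microtubules, transport and the nuclear envelope were also among the rises. Clasp2, which stabilises microtubule ends, went from 6.43, 6.44 and 6.47 to 7.14, 7.7 and 7.91 (1.14 ± 0.17, adjusted p = 0.0342). The motor gene Kif21a rose by 1.43 ± 0.22 (adjusted p = 0.0375) and the dynactin subunit gene Dctn4 by 1.11 ± 0.14 (adjusted p = 0.0194). Rab6a, of Golgi traffic, rose by 0.66 ± 0.1 (adjusted p = 0.0338), and Emd, which encodes emerin, by 1.05 ± 0.14 (adjusted p = 0.0204). Isy1, a spliceosome factor, rose by 1.9 ± 0.2 (adjusted p = 0.0108), from 5.12 ± 0.23 to 7.02 ± 0.43. Iyd, which removes iodine from iodotyrosines and is known from the thyroid, rose by 1.73 ± 0.29 (adjusted p = 0.0468), from 2.16 ± 0.24. The kinase gene Mast4 rose by 1.04 ± 0.14 (adjusted p = 0.0244). Ksr1, a scaffold of the ERK pathway, rose by 0.58 ± 0.1 (adjusted p = 0.0468), and Spry3, a Sprouty inhibitor, by 1.5 ± 0.22 (adjusted p = 0.0338). Dimmer clusters of Mast4, at 1.11, and of Sdc1 and Uck2 gave 0.12 ± 0.11, 0.42 ± 0.09 and 1.33 ± 0.27, none past the threshold. The remaining rises were Cdr2l, Serinc5, Brinp3 and Tubb4b, from 0.52 to 1.27. Of these, Brinp3 went from 1.16 to 1.71 and Tubb4b from 1.22 to 1.74, close to the background limit. They passed in 6 and 5 of 18 alternatives.

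Osteoblast differentiation and matrix genes showed no call. Of 25 measured members 0 passed in limma, and their median was 0.0. Of the 25, 4 had an unadjusted p under 0.05, as had 2078 of all 22180 genes. Col1a1 was at 12.29 ± 0.11 with vehicle and 12.29 ± 0.14 with hPTH(1-34). Alpl read 5.26, 5.86 and 5.39 and then 6.32, 6.73 and 6.38, separate groups whose change of 0.97 ± 0.17 missed the threshold (adjusted p = 0.0601). Of 43 collagens, their processing enzymes and small leucine-rich proteoglycans 0 passed in limma and 3 had an unadjusted p under 0.05, with a median of 0.01. The large proteoglycan gene Vcan gave 0.46 ± 0.11 (adjusted p = 0.142). Progenitor and tendon genes held 3 falls and no rise among 29, against 0.144% and 0.329% of all genes. Lbh, a transcription cofactor of limb and heart, went from 7.18, 7.51 and 7.43 to 6.2, 6.22 and 6.25, with nearly equal hormone arrays (-1.15 ± 0.15, adjusted p = 0.0237). Zfp521, a zinc finger regulator of osteoblast differentiation, fell by 0.95 (SE 0.13, adjusted p = 0.0244), and the tendon factor gene Scx by 0.66 (SE 0.1, adjusted p = 0.0375). Snai2, a zinc finger repressor of mesenchymal cells, fell by 0.84 (SE 0.14, adjusted p = 0.0466), and Arid5b, a chromatin regulator, by 0.7 (SE 0.1, adjusted p = 0.0275). The aggrecanase genes moved apart without passing: Adamts4 gave 1.05 ± 0.2 (adjusted p = 0.0691) and Adamts5 -0.85 ± 0.16 (adjusted p = 0.0691). Adamts9, of the same protease family, was at 6.64, 6.7 and 6.73 with vehicle and at 7.22, 7.72 and 7.83 with hPTH(1-34) (0.9 ± 0.16, adjusted p = 0.0536).

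The other falls were spread over many roles. Klhl24, a ubiquitin ligase adaptor, fell by 0.98 (SE 0.15, adjusted p = 0.0364), and Snx7, a sorting nexin of endosomes, by 0.94 (SE 0.15, adjusted p = 0.0449). Atg10, an enzyme of autophagosome formation, fell by 0.7 (SE 0.11, adjusted p = 0.0442) and Casp12, a caspase of the endoplasmic reticulum, by 0.91 (SE 0.14, adjusted p = 0.0375). Ift74, of transport in cilia, fell by 0.65 (SE 0.1, adjusted p = 0.0338). Bend5, Dennd4a, Fam13b, Plscr2 and Irak1bp1 had falls of -0.68 to -0.93, and 2 further falls were a predicted gene and an olfactory receptor gene. The olfactory receptor gene went from a mean of 1.61 to 0.95, both under the background limit.

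Several signalling lists held no member past the threshold in limma. Over all 22180 genes, 2078 had an unadjusted p under 0.05 in limma (5.55% higher and 3.82% lower). Of 40 FGF, EGF and angiogenic factors 9 had an unadjusted p under 0.05, 6 higher and 3 lower. The angiogenic factor gene Vegfa read 5.79, 5.43 and 5.22 with vehicle and 6.58, 6.56 and 6.52 with hPTH(1-34), separate groups with a change of 1.07 ± 0.2 (adjusted p = 0.0691). Fgf10 gave 0.82 ± 0.16 (adjusted p = 0.0697) and Fgf18 0.69 ± 0.13 (adjusted p = 0.0756). In the retinoid list of 16, with 8 at an unadjusted p under 0.05, Rdh10, which starts the oxidation of retinol, gave 1.95 ± 0.37 (adjusted p = 0.0706), from 4.01, 3.86 and 3.83 to 4.85, 6.04 and 6.67. Dhrs9, another retinol dehydrogenase, pointed the opposite way at -1.13 ± 0.3 (adjusted p = 0.209), and Crabp2, a carrier of retinoic acid, gave 0.68 ± 0.15 (adjusted p = 0.125). Of 14 prostaglandin genes 5 had an unadjusted p under 0.05. The receptor gene Ptger3 gave 0.95 ± 0.22 (adjusted p = 0.146), and Hpgd, which inactivates prostaglandins, -1.33 ± 0.35 (adjusted p = 0.218). Of 19 Notch genes 4 had an unadjusted p under 0.05, among them the ligand gene Jag1 at -0.98 ± 0.21 (adjusted p = 0.106). Of 18 circadian clock genes 8 did, with the clock repressor gene Bhlhe40 at 0.7 ± 0.13 (adjusted p = 0.0689). The 22 interferon response genes had a median of -0.18 and 3 members at an unadjusted p under 0.05, with the antiviral gene Ifit2 at -0.87 ± 0.19 (adjusted p = 0.118). Ackr3, a scavenging chemokine receptor, gave 0.92 ± 0.22 (adjusted p = 0.177). Each of these values missed the threshold over all genes, which does not show that the genes were unchanged.

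Of the 105 genes, 41 belonged to at least 1 of the 51 lists and 64 to none. Of the 41, 29 rose and 12 fell. In the bPTH(7-34) arrays, which share the vehicle arrays, the changes of the 73 risen genes had a median of 0.02 (from -0.35 to 0.64) and those of the 32 fallen genes a median of -0.01 (from -0.63 to 0.22). Beyond Ntrk2 and Kcne4, all bPTH(7-34) arrays lay over the vehicle arrays in further risen genes. Among these were Dgat1 (5.15, 4.65 and 4.78, vehicle up to 4.63) and Tpcn2 (5.9, 5.74 and 5.84, vehicle up to 5.69). In some fallen genes they all lay under, as in Pik3ip1 (4.11, 4.13 and 4.16, vehicle from 4.29). The doses differed, so these values only stand side by side with those of hPTH(1-34).

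**Figure D5:**
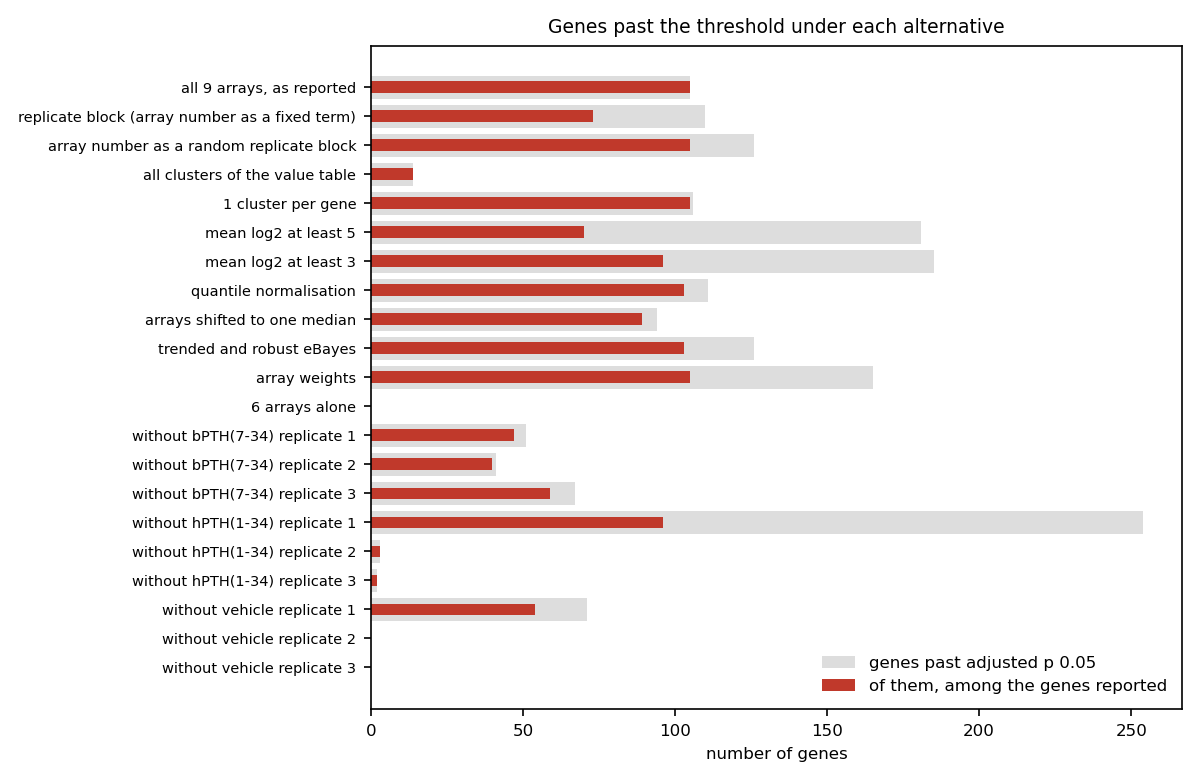
Number of genes past adjusted p 0.05 (horizontal axis) with all 9 arrays and under each of 20 alternatives (rows); grey bars count all genes past and red bars those among the 105 reported. The bars run from 0, for the 6 arrays alone or without vehicle array 2 or 3, to 254 without hPTH(1-34) array 1.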

How the data were processed

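RNA from 9 cultures was measured on Affymetrix Mouse Gene 2.0 ST arrays from 100 ng each. The authors deposited 1 log2 value per transcript cluster and array, normalised by RMA in Affymetrix Expression Console, per the submitters' processing notes; versions, build and annotation are not given in the sources used here. Of 41345 clusters, 23521 had exactly 1 gene symbol, 1814 several and 16010 none, per the platform annotation. These 23521 were fitted in R 4.3.3 by limma 3.58.1 (functions lmFit and eBayes, 9 arrays, group as the only term, two-sided, Benjamini-Hochberg over all 23521), with 6 residual and 3.2 prior degrees of freedom. A gene was read from its cluster with the highest mean (1082 genes had several). Errors of changes are standard errors of this fit, and those of levels are standard deviations. RMA shrinks differences near background, so changes of dim genes can be understated. The number of arrays limits the precision; an exact permutation of 3 against 3 arrays cannot give p below 0.1.

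The members and lists were chosen with earlier results of these data known. Any called gene could be named, except predicted, small RNA and olfactory genes, with up to 4 members per list of the smallest p, every member of families of up to 12, and fixed genes; Nr4a1 was added after its values were seen. List entries with no cluster of a single symbol, such as Runx2 and Spp1, are not analysed here. Alternatives were a block of array number, other sets of clusters, filters on dim clusters, normalisation, variance models, array weights, the 6 arrays alone, a 2-fold threshold and each array left out. The fit was tested on simulated data. Promoter windows came from a RefSeq table of GRCm38.p6. Plots were drawn with matplotlib 3.10.9.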

Additional observations from a re-analysis of the deposited data

How the results depend on the processing

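Between the alternatives the number of genes past the threshold varied widely, against 105 (73 higher, 32 lower) as reported. It was 14 (13 and 1) with all clusters tested, 181 (114 and 67) with a mean log2 of at least 5, 185 (129 and 56) with at least 3, 165 (117 and 48) with array weights, and 59 (52 and 7) with a 2-fold threshold added. The 6 arrays alone gave 0 (0 and 0) in limma, with 1833 genes at an unadjusted p under 0.05. Leaving out each array gave 0 to 254 genes (0 to 175 higher, 0 to 79 lower). In every fit that included them, the 105 genes kept their sign, which their separate groups fix when an array is left out. Quantile normalisation and a shift to one median gave 111 and 94 genes. Tnfrsf11b, not past the threshold, ran from -0.18 to 0.01 over the fits without 1 array, and changed sign without hPTH(1-34) array 2. For the other values of named genes 2011 kept their side of the threshold, 871 lost it and 101 gained it; the causes were not tested.

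The deviations of vehicle and hPTH(1-34) arrays from their group means correlated at 0.374, 0.076 and 0.175 for numbers 1, 2 and 3. Between arrays of different numbers they correlated at -0.302 to 0.147. Arrays of one number were not taken as pairs in the main fit, because number 2 fell short of the limit set beforehand. These values do not show that the arrays were unpaired. A block of array number in the fit passed 110 genes (81 higher, 29 lower), 73 of the 105 among them, while a random block gave 126. With the block, Bmp4 did not pass (adjusted p = 0.0853), and Dgat1, Nr4a3, Vdr, Tnfsf11 and Rspo2 did (0.0204 to 0.046).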
